A study of Mus musculus with 24 samples.

Results

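The genes described here are 10 RNA-binding proteins that regulate alternative splicing in muscle: Mbnl1, Mbnl2, Mbnl3, Rbfox2, Celf1, Celf2, Rbm20, Rbm24, Rbm38, and Ptbp1. They were chosen by name for this role, out of 56941 genes in the deposited tables, and all 10 were among the 13318 genes with enough counts to test. RNA was sequenced from 24 muscle tissues grown from an engineered C2C12 line, mouse myoblasts that differentiate in culture into contractile fibers. The cells of every group, controls included, had the genotype ChR2::tdTomato, that is, channelrhodopsin (ChR2), an ion channel opened by blue light, with a red fluorescent protein. All were differentiated in medium with horse serum and IGF-1. Tissues received light for 30 min per day at 1, 4, or 10 Hz, or were left without light as control, with 6 libraries in each of the 4 conditions. Control tissues could contract on their own, without light. The study describes the tissues of a condition as biological replicates, and all came from the same engineered line, so p-values measure the spread between tissues of that line.

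During muscle differentiation the same genes are transcribed in myoblasts and fibers but are spliced differently, and a small set of RNA-binding proteins sets much of this change. MBNL proteins promote the adult splicing pattern and oppose CELF proteins, which favor embryonic isoforms, and the balance between both families is disturbed in myotonic dystrophy. RBFOX2, RBM20, RBM24, and RBM38 act on sarcomere and differentiation transcripts, and PTBP1 represses many muscle and neuronal exons. The deposited values are totals per gene. They measure how much RNA of each regulator was present and do not measure splicing, protein, or activity.

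Total counts ranged from 4.09 to 15.2 M per library. Of the fiber marker list, 11 of 12 genes, among them Acta1, Tnnt3, and Atp2a1, rose at both 1 and 4 Hz, Ckm being the exception, and 2 rose at 10 Hz. Their summed level in TPM (transcripts per M, that is, corrected for transcript length and depth) was 5780 to 7084 in control, 8522 to 12039 at 1 Hz, 8638 to 13386 at 4 Hz, and 5359 to 8745 at 10 Hz. The summed TPM of 7 cell cycle markers was 191 to 232 in control, 142 to 192 at 1 Hz, 133 to 179 at 4 Hz, and 166 to 227 at 10 Hz. Most of this sum was Pcna (mean 143 TPM), beside 22.5 for Cdk1, 4.00 for Ccnb1, and 0.196 for Mki67. By gene, 0 rose and 3 fell at 1 Hz, 3 rose and 3 fell at 4 Hz, and 0 changed at 10 Hz. The labels call the cells myoblasts, and all 5 myoblast or reserve cell markers were present, at means of 0.744 (Pax7), 13.7 (Myf5), 24.1 (Cd34), 37.7 (Id3), and 25.6 TPM (Hes1), beside 4299 TPM for the fiber gene Acta1. Markers of other lineages were mixed. Of the fibroblast list, Dcn (mean 26.8 TPM) and Pdgfra (5.48) were present in every library, and Thy1 and Lum were at 0 in 18 of 24 libraries each. Cd68 (119 TPM) of the macrophage list and Tubb3 (28.5) of the neuron list were present in every library, while Ptprc and Snap25 were at 0 in 23 libraries each and Adgre1 and Rbfox3 in 22 each. The endothelial and adipocyte genes had means of at most 0.398 TPM. Small RNAs without a poly(A) tail (34 genes) took 99.7 to 170 counts per M (CPM) of each control library, 15.6 to 70.2 at 1 Hz, 19.6 to 51.1 at 4 Hz, and 38.5 to 276 at 10 Hz, so the control range lay above those of 1 and 4 Hz. The fiber markers and this share therefore differed from control at 1 and 4 Hz, the conditions in which some of the regulators below were called against control. In bulk tissue, fewer cells of a type and less RNA per cell cannot be told apart.

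Compared per transcript length, as TPM, the regulators spanned a wide range. The mean over 24 libraries was 117 TPM for Ptbp1, 98.2 for Rbfox2, 95.4 for Mbnl2, 85.5 for Rbm38, 66.5 for Rbm24, 66.0 for Mbnl1, 38.3 for Celf1, 28.9 for Rbm20, 26.0 for Celf2, and 2.28 for Mbnl3. Neighbors in this order often could not be ranked. Rbfox2 exceeded Mbnl2 in 15 of 24 libraries, Mbnl2 exceeded Rbm38 in 14, Rbm24 exceeded Mbnl1 in 13, and Rbm20 exceeded Celf2 in 15. Ptbp1 exceeded Rbfox2 in 20, Rbm38 exceeded Rbm24 in 19, and Celf1 exceeded Rbm20 in 20. The steps from Mbnl1 down to Celf1 and from Celf2 down to Mbnl3 held in all 24 libraries.

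**Figure D1:**
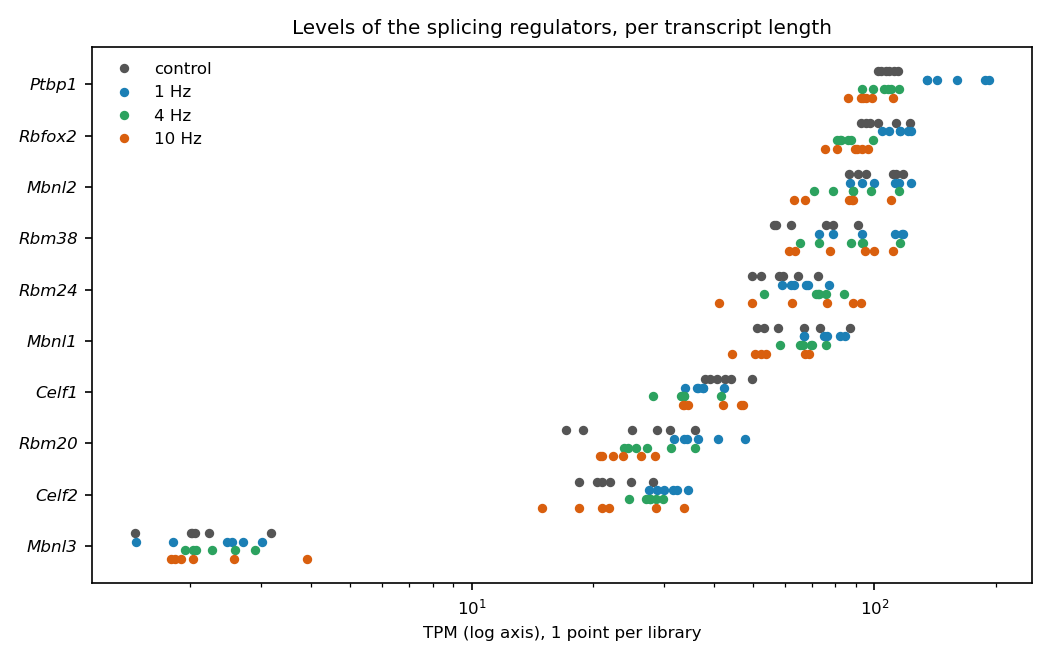
TPM of each regulator (log axis, 1 point per library, 6 per condition), ordered by the mean over 24 libraries. Mbnl3 lay far below the other 9 genes at a mean of 2.28 TPM, and neighboring genes overlapped over most of the order.

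The first question was which regulators changed with stimulation relative to control. A gene was counted as upregulated or downregulated at a Benjamini-Hochberg adjusted p below 0.05 in edgeR's quasi-likelihood test over all genes tested. At 1 Hz, 4 of 10 regulators were upregulated (Ptbp1, Rbm20, Rbm38, and Rbfox2) and 0 were downregulated, against 18.1% of all genes tested that were upregulated and 17.3% downregulated. At 4 Hz, 2 of 10 were upregulated (Rbm20 and Rbm38) and 0 downregulated, against 19.2% and 20.2% of all genes, so that the share of regulators upregulated was near that of all genes. No overlap with control was seen for 2 of 10 at 1 Hz (Ptbp1 and Rbfox2), against 13.1% of all genes, and for 0 of 10 at 4 Hz, against 16.6%. At 10 Hz, 0 of 10 passed, against 2.67% and 2.22% of all genes, and 0 were free of overlap, against 2.58%. At that frequency 1 regulator, Rbfox2, had an unadjusted p below 0.05 in edgeR, and DESeq2 also called 0, with 2 below an unadjusted 0.05. Mbnl1, Mbnl2, Mbnl3, Celf1, Celf2, and Rbm24 passed in none of the 6 comparisons between conditions. With an absolute log2 fold change above 0.5 required as well, only Rbm38 remained at 1 and at 4 Hz, where 18.3% and 20.1% of all genes remained (1.86% at 10 Hz). The study counted genes at the same cutoffs, but with DESeq2 and fold changes shrunk toward 0, which were not used here. The 3 comparisons with control share the same 6 control libraries.

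**Figure D2:**
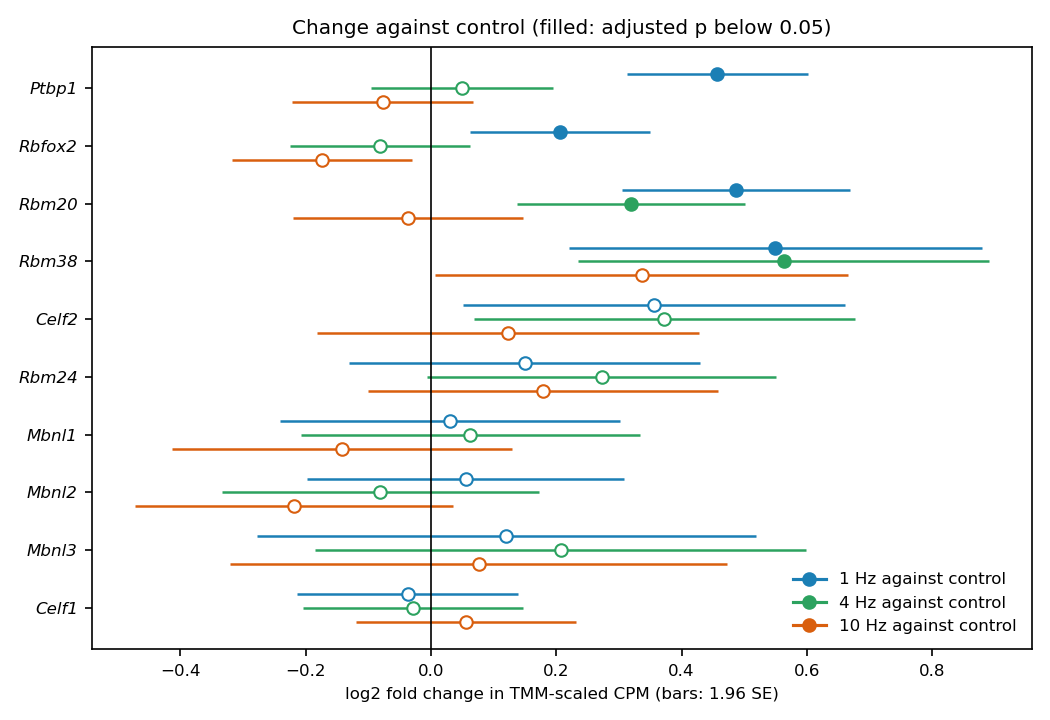
Log2 fold change in TMM-scaled CPM against control for each regulator at 1, 4, and 10 Hz, with 95% intervals (normal approximation), filled where the adjusted p was below 0.05. Ptbp1 and Rbfox2 were past the threshold at 1 Hz, Rbm20 and Rbm38 at both 1 and 4 Hz, and no gene at 10 Hz.

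Ptbp1 encodes polypyrimidine tract binding protein 1, a repressor of neuronal and muscle exons that declines as myoblasts differentiate. It lies at chr10:79690261-79700605 on the plus strand (GRCm39) with 14 exons in its reference transcript. The lowest, median, and highest values were 143, 146, and 164 CPM in control (TMM-scaled, as are all CPM of regulators here) and 179, 198, and 240 CPM at 1 Hz. They were 139, 155, and 169 CPM at 4 Hz and 127, 145, and 150 CPM at 10 Hz. Every 1 Hz library was above every library of the other 3 conditions, which overlapped each other. Within 1 Hz, replicates 1, 2, and 3 (191, 179, and 189 CPM) were below replicates 4, 5, and 6 (230, 240, and 205 CPM). The mean was 150 ± 8.66 CPM for control and 206 ± 24.4 CPM for 1 Hz tissues (SD, n = 6). Ptbp1 thus rose by 0.46 ± 0.07 on the log2 scale (SE, adjusted p = 5.61e-05). At 4 Hz the log2 fold change was 0.05 (95% interval -0.10 to 0.19, adjusted p = 0.624) and at 10 Hz it was -0.08 (-0.22 to 0.07, adjusted p = 0.600). The direct comparisons also separated 1 Hz: against 1 Hz, the log2 fold change of Ptbp1 was -0.41 ± 0.07 in the 4 Hz tissues (adjusted p = 0.000821) and -0.53 ± 0.07 in the 10 Hz tissues (adjusted p = 7.35e-06). The deposited counts of Ptbp1 were not whole in 19 of 24 libraries, by more than 0.01, so the authors' estimator shared some of its reads with another annotated transcript.

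Ptbp2, the neuronal relative that PTBP1 itself represses, gave a second view of this gene. PTBP1 skips an exon of Ptbp2 whose loss shifts the reading frame and sends the transcript to decay. The 34-base exon of Ptbp2 that all 4 of its coding transcripts spanning it contain lies at chr3:119518261-119518294 on the minus strand (GRCm39), and it is shown because its inclusion, which these gene totals cannot resolve, is the known link between both genes:
Ptbp2 exon: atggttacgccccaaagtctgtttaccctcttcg

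Ptbp2 was at 38.6 to 55.7 CPM in 5 of the control libraries and at 30.9 CPM in the sixth. It did not pass the test at 1 Hz (log2 fold change -0.19, adjusted p = 0.300), 4 Hz (-0.05, adjusted p = 0.796), or 10 Hz (0.07, adjusted p = 0.828). The ratio of Ptbp1 to Ptbp2 in TPM was 2.94 to 4.26 in control, 3.56 to 6.99 at 1 Hz, 2.92 to 4.14 at 4 Hz, and 2.49 to 4.11 at 10 Hz. The 1 Hz ratios reached highest but overlapped control, and the ratio is given without a test.

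Rbfox2, a regulator of fusion and of sarcomere exons, showed a smaller rise at 1 Hz. It lies at chr15:76963189-77191303 on the minus strand. It ranged over 300, 316, and 344 CPM in control (lowest, median, highest) and over 346, 367, and 395 CPM at 1 Hz. It ranged over 273, 303, and 324 CPM at 4 Hz and over 238, 288, and 323 CPM at 10 Hz. The 1 Hz libraries were all above the control libraries, by a narrow margin, and above all 4 and 10 Hz libraries. The mean was 319 ± 17.6 CPM for control and 369 ± 18.8 CPM for 1 Hz tissues (SD, n = 6), and the log2 fold change was 0.21 ± 0.07 (SE, adjusted p = 0.0302). Against 1 Hz, Rbfox2 was lower at 4 Hz (log2 fold change -0.29 ± 0.07, adjusted p = 0.0113) and at 10 Hz (-0.38 ± 0.07, adjusted p = 0.000278). Against control, it was at a log2 fold change of -0.08 at 4 Hz (adjusted p = 0.395) and -0.17 at 10 Hz (adjusted p = 0.168), where 4 of 6 libraries were below every control library. The call at 1 Hz was the least stable of the 4. Its adjusted p was above 0.05 without control replicate 3, without control replicate 5, without 1 Hz replicate 2, or without 1 Hz replicate 3. It was 0.191 with scaling by total count (log2 fold change 0.13), 0.154 on TPM (0.15), and 0.0620 without a filter on low counts (0.24). Without that filter the call at 4 Hz against 1 Hz was lost as well (-0.28, adjusted p = 0.0648).

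Rbm20, best known for directing the splicing of titin, was upregulated at both low frequencies. It lies at chr19:53665697-53855514 on the plus strand. The lowest, median, and highest values were 51.9, 58.8, and 74.7 CPM in control, 74.2, 88.6, and 96.2 CPM at 1 Hz, 71.8, 76.9, and 88.5 CPM at 4 Hz, and 54.9, 58.8, and 68.8 CPM at 10 Hz. All 1 and 4 Hz libraries were above all 10 Hz libraries, while a pair of control libraries (74.1 and 74.7 CPM) reached into the 4 Hz range and the upper of them into the 1 Hz range. The mean was 62.0 ± 10.3 CPM for control and 86.9 ± 7.92 CPM for 1 Hz tissues (SD, n = 6), and Rbm20 rose by 0.49 ± 0.09 on the log2 scale (SE, adjusted p = 0.000289). It was 77.5 ± 6.12 CPM at 4 Hz (log2 fold change 0.32 ± 0.09, adjusted p = 0.00795) and 60.6 ± 5.56 CPM at 10 Hz (-0.04, 95% interval -0.22 to 0.15, adjusted p = 0.879). The 1 and 4 Hz groups did not pass the test against each other (log2 fold change -0.17, interval -0.35 to 0.01, adjusted p = 0.242). In the 10 Hz tissues, Rbm20 had a log2 fold change of -0.52 ± 0.09 against 1 Hz (adjusted p = 0.000108) and of -0.36 ± 0.09 against 4 Hz (adjusted p = 0.00709). On TPM the 4 Hz change was 0.13 (adjusted p = 0.509), and with scaling by total count it was 0.22 (adjusted p = 0.0676).

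Titin (Ttn), the main target of RBM20, changed little in total RNA. Its mean was 1030 CPM in control, and its log2 fold change was 0.06 at 1 Hz (adjusted p = 0.655), 0.11 at 4 Hz (adjusted p = 0.416), and 0.19 at 10 Hz (adjusted p = 0.302). Ldb3, a Z-disc gene whose exons are also RBM20 targets, rose at 1 Hz (log2 fold change 0.63, adjusted p = 0.000178) and at 4 Hz (0.68, adjusted p = 5.67e-05), and was named after its values were seen.

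Rbm38, which regulates splicing and RNA stability and promotes exit from the cell cycle during myogenesis, showed the largest fold change of the 10 at 1 and 4 Hz, with wide spread. It lies at chr2:172862291-172876527 on the plus strand. The lowest, median, and highest values were 61.7, 65.2, and 92.7 CPM in control, 75.7, 107, and 124 CPM at 1 Hz, 77.9, 103, and 143 CPM at 4 Hz, and 57.0, 91.7, and 116 CPM at 10 Hz. The groups overlapped: the highest control library was above 3 of the 1 Hz and 2 of the 4 Hz libraries. At 1 Hz the libraries lay apart, with replicates 1, 2, and 3 at 91.5, 86.3, and 75.7 CPM. Replicates 4, 5, and 6 were at 122, 123, and 124 CPM. The cause of this split was not tested. The mean was 70.7 ± 11.97 CPM for control, 104 ± 21.6 CPM for 1 Hz, and 105 ± 22.2 CPM for 4 Hz tissues (SD, n = 6). The log2 fold change was 0.55 ± 0.17 at 1 Hz (SE, adjusted p = 0.0127) and 0.56 ± 0.17 at 4 Hz (adjusted p = 0.00941). At 10 Hz it was 0.34 (95% interval 0.01 to 0.67, unadjusted p = 0.0558, adjusted p = 0.257). The interval uses a normal approximation and is narrower than the test implies. The direct comparisons of 10 Hz with 1 Hz (-0.21, adjusted p = 0.322) and with 4 Hz (-0.23, adjusted p = 0.335) did not pass. A difference of Rbm38 between frequencies was thus not detected. On TPM the 4 Hz change was 0.32 (adjusted p = 0.128), and the 1 Hz change was 0.48 (adjusted p = 0.0724) where TPM were not filtered. Cdkn1a, the cell cycle inhibitor whose mRNA RBM38 is known to stabilize, did not pass at 1 Hz (0.13, adjusted p = 0.229) or 4 Hz (-0.05, adjusted p = 0.689), and was named after its values were seen.

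**Figure D3:**
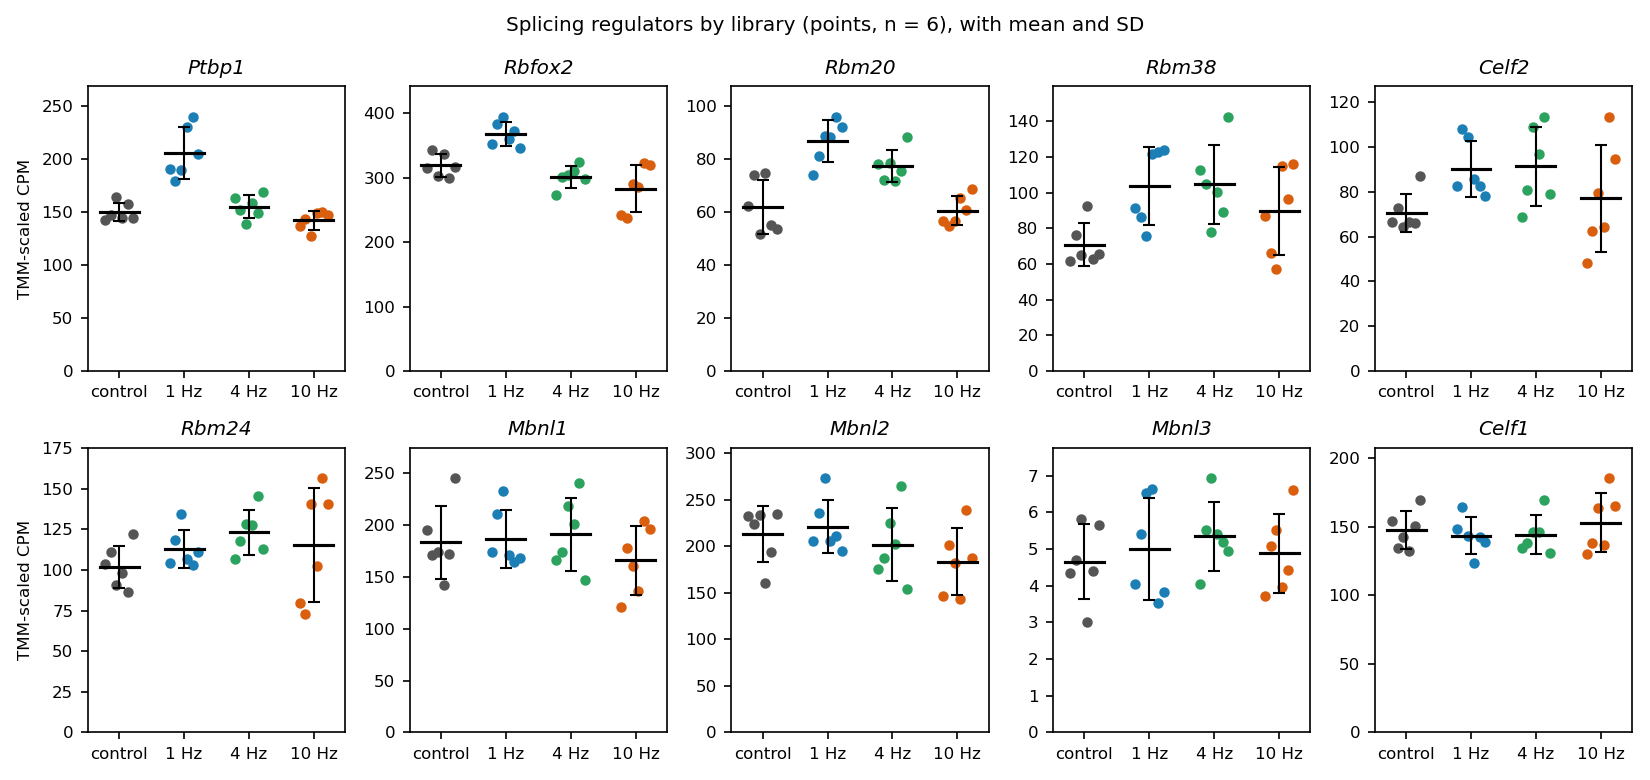
TMM-scaled CPM of the 10 regulators in every library (points), with the mean and SD of the 6 libraries per condition. Every 1 Hz library of Ptbp1 (179 to 240 CPM) was above all other libraries, and Celf2 and Rbm24 spread most at 10 Hz (48.3 to 114 and 73.0 to 157 CPM).

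Rbm24, the close relative of Rbm38 that promotes inclusion of muscle exons, gave no call in the fit of all 24 libraries. It lies at chr13:46571589-46584575 on the plus strand. It was at 86.2, 101, and 122 CPM in control (lowest, median, highest), 103, 109, and 134 CPM at 1 Hz, 107, 123, and 145 CPM at 4 Hz, and 73.0, 121, and 157 CPM at 10 Hz. The log2 fold change was 0.15 at 1 Hz (adjusted p = 0.436), 0.27 at 4 Hz (interval -0.01 to 0.55, adjusted p = 0.129), and 0.18 at 10 Hz (adjusted p = 0.512). With only the 12 libraries compared, the 4 Hz value was 0.28 and passed (adjusted p = 0.0300). At 10 Hz the libraries lay apart, with replicates 1 and 2 at 79.8 and 73.0 CPM, below every control library, and replicates 3, 5, and 6 at 141, 157, and 141 CPM, above every control library.

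Celf2 came close to the threshold. It lies at chr2:6544505-7514374 on the minus strand. It was at 64.3, 66.5, and 87.0 CPM in control (lowest, median, highest), 78.3, 84.1, and 108 CPM at 1 Hz, 68.9, 88.7, and 113 CPM at 4 Hz, and 48.3, 71.8, and 114 CPM at 10 Hz. At 1 Hz, 5 control libraries (at most 73.0 CPM) were below all 1 Hz libraries and the sixth was not. The log2 fold change was 0.36 ± 0.16 at 1 Hz (SE, adjusted p = 0.0761), 0.37 ± 0.15 at 4 Hz (adjusted p = 0.0570), and 0.12 ± 0.16 at 10 Hz (adjusted p = 0.709). A fit of only the 12 libraries compared gave 0.36 at 1 Hz (adjusted p = 0.0111) and 0.38 at 4 Hz (adjusted p = 0.0186). DESeq2 gave an adjusted p of 0.0449 at 4 Hz, and TPM gave 0.45 at 1 Hz (adjusted p = 0.0155). Leaving out control replicate 6, the highest control, also brought Celf2 past the threshold at 1 Hz (adjusted p = 0.0446). Other settings gave no call. DESeq2 at 1 Hz had an adjusted p of 0.0667, and TPM at 4 Hz gave 0.29 (adjusted p = 0.0881). Scaling by total count gave 0.28 at both frequencies (adjusted p = 0.159 and 0.150). With the small RNA share as a covariate, Celf2 was at 0.01 at 1 Hz (adjusted p = 0.991) and 0.04 at 4 Hz (adjusted p = 0.953). The 10 Hz replicates 1 and 2 were again low (48.3 and 62.4 CPM) and 5 and 6 high (114 and 94.6 CPM). The small RNA share was 179 and 276 CPM in 10 Hz replicates 1 and 2 and 68.4 and 38.5 CPM in replicates 5 and 6, so in these libraries it ran opposite to Celf2 and Rbm24. Its part in these values was not tested.

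Celf1, the CELF protein that is raised in myotonic dystrophy, was the most even of the 10. It lies at chr2:90770584-90849842 on the plus strand. Control, 1, 4, and 10 Hz tissues had means of 147 ± 13.9, 144 ± 13.3, 144 ± 14.0, and 153 ± 21.6 CPM (SD, n = 6). The log2 fold changes against control were -0.04 (95% interval -0.21 to 0.14), -0.03 (-0.20 to 0.15), and 0.06 (-0.12 to 0.23), with adjusted p = 0.774, 0.826, and 0.783. On TPM the 4 Hz value was -0.32 (adjusted p = 0.0141), a call that counts did not give. That scale moved the median of all genes to -0.16 at 4 Hz.

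The MBNL genes, which encode muscleblind-like proteins and drive the fetal to adult splicing switch, did not pass in any comparison. Mbnl1 lies at chr3:60380102-60537183 on the plus strand, Mbnl2 at chr14:120512932-120669110 on the plus strand, and Mbnl3 at chrX:50202383-50295478 on the minus strand. Mbnl1 was at 142 to 245 CPM in control, 164 to 233 at 1 Hz, 147 to 241 at 4 Hz, and 121 to 204 at 10 Hz, and all groups overlapped. Its log2 fold changes were 0.03 (95% interval -0.24 to 0.30), 0.06 (-0.21 to 0.33), and -0.14 (-0.41 to 0.13) at 1, 4, and 10 Hz (adjusted p = 0.884, 0.745, and 0.607). Mbnl2 was at 160 to 235 CPM in control, 195 to 273 at 1 Hz, 154 to 265 at 4 Hz, and 143 to 239 at 10 Hz. Its log2 fold changes were 0.06, -0.08, and -0.22 (adjusted p = 0.768, 0.648, and 0.354), and the interval at 10 Hz was -0.47 to 0.03. Mbnl3, which is known from proliferating myoblasts, had only 19 to 96 counts per library and a mean of 4.65 ± 1.02 CPM in control. Its log2 fold changes of 0.12, 0.21, and 0.08 had SEs of about 0.20, so changes of that size were not detectable at this depth. In TPM, Mbnl2 made up a mean of 56.0% to 60.7% of the MBNL total per condition, Mbnl1 38.1% to 42.6%, and Mbnl3 1.27% to 1.64%.

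MBNL proteins are known to regulate an exon of their own transcripts that helps to retain the protein in the nucleus. The alternative 54-base coding exons of Mbnl1 (chr3:60522104-60522157, plus strand, GRCm39) and Mbnl2 (chr14:120633124-120633177, plus strand) are shown because totals per gene pool transcripts with and without them. In the annotation, 5 of 29 coding transcripts that span the Mbnl1 exon contain it, and 15 of 45 do for Mbnl2. Both are identical at 46 of 54 bases (85.2%), and capitals mark the 8 bases that differ:
Mbnl1 exon: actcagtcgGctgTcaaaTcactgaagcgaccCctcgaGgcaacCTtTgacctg
Mbnl2 exon: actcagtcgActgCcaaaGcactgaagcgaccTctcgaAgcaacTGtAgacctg

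The balance of MBNL to CELF is described without a test. The ratio of Mbnl1 to Celf1 in TPM had a mean of 1.52 in control (1.34 to 1.75), 2.03 at 1 Hz (1.58 to 2.32), 2.01 at 4 Hz (1.75 to 2.47), and 1.43 at 10 Hz (1.07 to 1.63). The 1 and 4 Hz ratios were mostly above control and the 10 Hz ratios were not. In CPM, which are not corrected for transcript length, neither gene passed the test, with Mbnl1 at a mean of 183, 187, 191, and 166 CPM and Celf1 at 147, 144, 144, and 153 CPM in control, 1, 4, and 10 Hz. The ratio of summed MBNL to summed CELF genes in TPM was 2.31 to 2.79 in control, 2.47 to 3.06 at 1 Hz, 2.45 to 2.76 at 4 Hz, and 2.04 to 2.71 at 10 Hz, and all groups overlapped.

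Because TPM and counts gave different pictures for these genes, the transcript length implied by the ratio of estimated count to TPM was compared between conditions. The ratio was centered on its median in each library, and the measure was chosen after the data were seen. A change in it can arise where the estimator assigned reads to longer or shorter transcripts of a gene. With limma over 10942 genes, 0 of 10 regulators passed an adjusted p of 0.05 at 1, 4, or 10 Hz against control, and 3, 2, and 1 had an unadjusted p below 0.05. Over all genes 0.155%, 0.356%, and 0% passed. The lowest p was that of Rbm24 at 4 Hz, with a log2 difference in implied length of -0.17 ± 0.05 (SE, unadjusted p = 0.00259, adjusted p = 0.144). Celf1 at 4 Hz had 0.12 ± 0.04 (adjusted p = 0.253), Mbnl1 at 1 Hz -0.25 ± 0.11 (adjusted p = 0.437), and Ptbp1 at 1 Hz -0.15 ± 0.06 (adjusted p = 0.361). A change in transcript use of these regulators was not detected at this depth.

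Every call against control was lost when the small RNA share described above entered the fit as a covariate on the log2 scale. At 1 Hz the log2 fold change of Ptbp1 went from 0.46 to 0.31 (adjusted p = 0.344), that of Rbm20 from 0.49 to 0.20 (adjusted p = 0.687), that of Rbm38 from 0.55 to 0.04 (adjusted p = 0.977), and that of Rbfox2 from 0.21 to -0.04 (adjusted p = 0.949). At 4 Hz Rbm20 went from 0.32 to 0.04 (adjusted p = 0.913) and Rbm38 from 0.56 to 0.06 (adjusted p = 0.930). With this term, 1 of 13318 genes passed at 1 Hz and 260 passed at 4 Hz. Since every 1 and 4 Hz library had a lower share than every control library, stimulation and covariate cannot be told apart in these comparisons. RNA was poly(A)-selected except in an unnamed set of low-input samples prepared by ribodepletion, so library preparation cannot be told apart from condition either. This holds for every call against control and for every call between frequencies. Between 4 and 1 Hz, where the shares overlapped, both calls held with the covariate: Ptbp1 at -0.40 (adjusted p = 0.000671) and Rbfox2 at -0.28 (adjusted p = 0.00495). Between 10 and 1 Hz the change of Ptbp1 was -0.41 with the covariate (adjusted p = 0.0507), that of Rbfox2 -0.18 (adjusted p = 0.345), and that of Rbm20 -0.27 (adjusted p = 0.263). Between 10 and 4 Hz, Rbm20 was at -0.12 (adjusted p = 0.942). Over all 13318 genes, 1693 passed with the covariate between 4 and 1 Hz, beside 1634 without it. Between 10 and 1 Hz, 199 passed with it and 4829 without. Between 10 and 4 Hz, 0 passed with it and 3037 without.

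**Figure D4:**
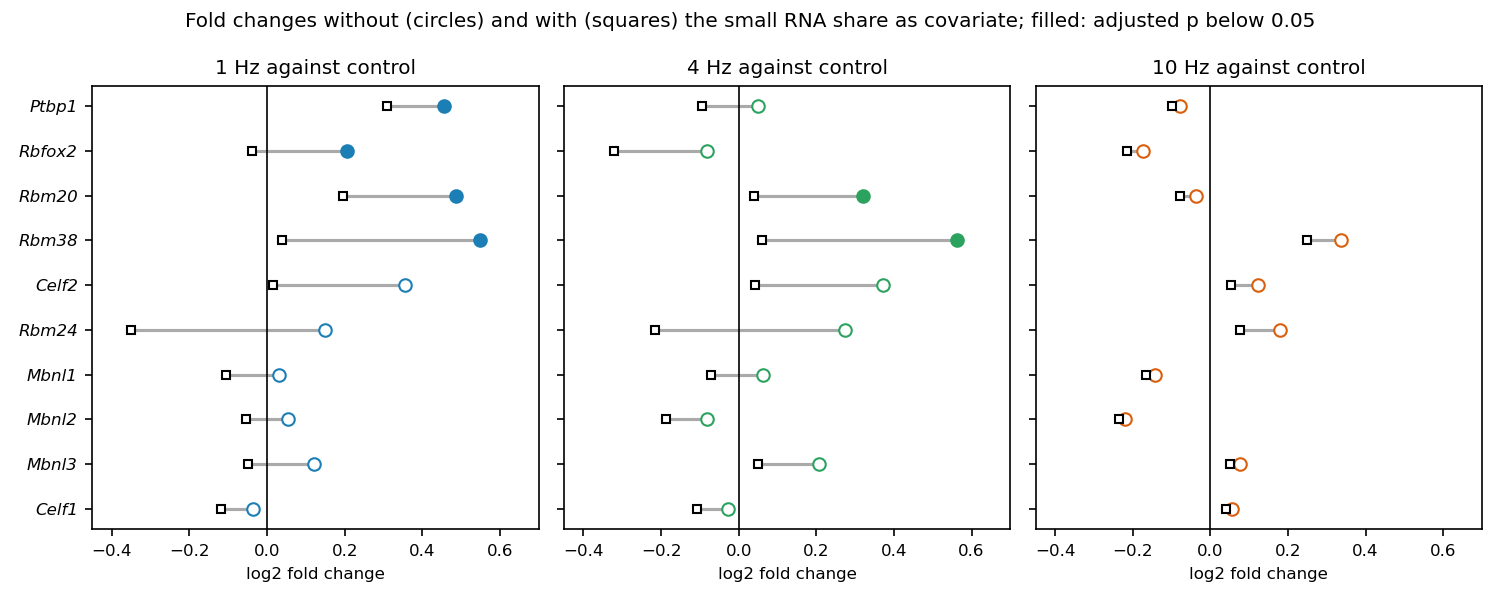
Log2 fold change of each regulator against control without (circles) and with (black squares) the log2 small RNA share as a covariate, filled where the adjusted p was below 0.05. At 1 and 4 Hz all calls were lost, with Rbm38 moving from 0.55 to 0.04 at 1 Hz, while at 10 Hz the values moved little.

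The comparisons between stimulated groups gave calls of lower expression at the higher frequency. At 4 Hz against 1 Hz, 0 regulators were upregulated and 2 downregulated (Ptbp1 and Rbfox2), against 5.71% and 6.56% of all genes. At 10 Hz against 1 Hz, 0 were upregulated and 3 downregulated (Ptbp1, Rbm20, and Rbfox2), against 17.7% and 18.5%. At 10 Hz against 4 Hz, 0 were upregulated and 1 downregulated (Rbm20), against 10.9% and 11.9%. In order of mean CPM, Ptbp1 and Rbfox2 were highest at 1 Hz with the other 3 conditions not separated from each other. Rbm20 was highest at 1 and 4 Hz, not separated, followed by control and 10 Hz, not separated.

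Other splicing genes are given by list, as counts to be read against all genes tested, of which 18.1% rose and 17.3% fell at 1 Hz, 19.2% and 20.2% at 4 Hz, and 2.67% and 2.22% at 10 Hz. No list was tested against the other genes, and the balance of higher and lower calls depends on the scaling. Of 19 other RNA-binding splicing regulators tested, 4 fell at 1 Hz, 3 fell at 4 Hz, and 0 fell at 10 Hz. The 1 counted as higher at each frequency was Rbfox1. It passed the filter on low counts through the stimulated libraries and is described below without a test. The median log2 fold change of the 19 was -0.01, -0.10, and -0.01, beside -0.01 over all genes at each frequency. Fubp1, a nucleic acid binding protein known as a regulator of Myc, fell at 1 Hz (log2 fold change -0.79, adjusted p = 1.67e-05) and 4 Hz (-0.71, adjusted p = 2.82e-05) with no overlap. Tia1 fell at 1 Hz (-0.71, adjusted p = 0.00204) and Rbm25 at 4 Hz (-0.42, adjusted p = 0.0201).

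The gene counted as higher at all 3 frequencies was Rbfox1, the muscle and neuron relative of Rbfox2, which was below the level set for naming genes (mean 3.57 CPM) and is named after its values were seen. It was at 0.697 to 1.51 CPM (3 to 12 counts) in control, 3.93 to 8.14 CPM at 1 Hz, 3.39 to 5.47 CPM at 4 Hz, and 1.61 to 5.31 CPM at 10 Hz. In CPM every stimulated library was above every control library. At this level the gene passed the filter on low counts through the stimulated libraries, so its values are a description with no test. In TPM the groups overlapped: control libraries were at 0.835 to 3.33, 1 Hz at 2.99 to 5.79, 4 Hz at 2.24 to 4.27, and 10 Hz at 1.49 to 3.19, and control replicate 4 (3.33) was above all 10 Hz libraries. Rbfox1 stayed at a few TPM in every group, while Rbfox2 had a mean of 98.2 TPM.

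SR proteins, which promote exon inclusion, were mixed. Of 12 tested, 2 rose and 3 fell at 1 Hz, 1 rose and 3 fell at 4 Hz, and 0 passed at 10 Hz. Srsf1 fell at 1 Hz (-0.71, adjusted p = 0.00162) and 4 Hz (-0.57, adjusted p = 0.00708), and Srsf7 fell at both (-0.51 and -0.37, adjusted p = 0.00372 and 0.0249). Srsf4 rose at 1 Hz (0.38, adjusted p = 0.00199) and Srsf5 rose at both (0.32 and 0.26, adjusted p = 0.0132 and 0.0352). Among 23 hnRNPs, which often repress exons, 0 rose and 7 fell at 1 Hz, 1 rose and 7 fell at 4 Hz, and 0 passed at 10 Hz, with a median of -0.07, -0.11, and 0.02. Hnrnpd, an AU-rich element binding protein, fell most, by -0.86 at 1 Hz (adjusted p = 8.12e-05) and -0.85 at 4 Hz (adjusted p = 5.14e-05) without overlap. Hnrnpc rose at 4 Hz (0.31, adjusted p = 0.00255).

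Of 9 kinases that phosphorylate SR proteins, 3 rose and 2 fell at 1 Hz and 2 rose and 2 fell at 4 Hz. Srpk3, the muscle-specific member, rose at 1 Hz (0.57, adjusted p = 0.00428) and 4 Hz (0.72, adjusted p = 0.000412), while Clk1 fell at both (-0.68 and -0.55, adjusted p = 0.000857 and 0.00371). Of 27 core spliceosome genes, 3 rose and 7 fell at 1 Hz, 3 rose and 11 fell at 4 Hz, and 2 rose and 1 fell at 10 Hz. Sf3b3, of the branch point complex, fell at 1 Hz (-0.58, adjusted p = 0.000504) and 4 Hz (-0.83, adjusted p = 6.62e-06). Snrpd2 and Snrpg, parts of the Sm ring of the spliceosomal RNPs, rose at 4 Hz (0.57 and 0.52, adjusted p = 2.82e-05 and 9.77e-05) and at 10 Hz (0.39 and 0.36, adjusted p = 0.0130 and 0.0217).

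**Figure D5:**
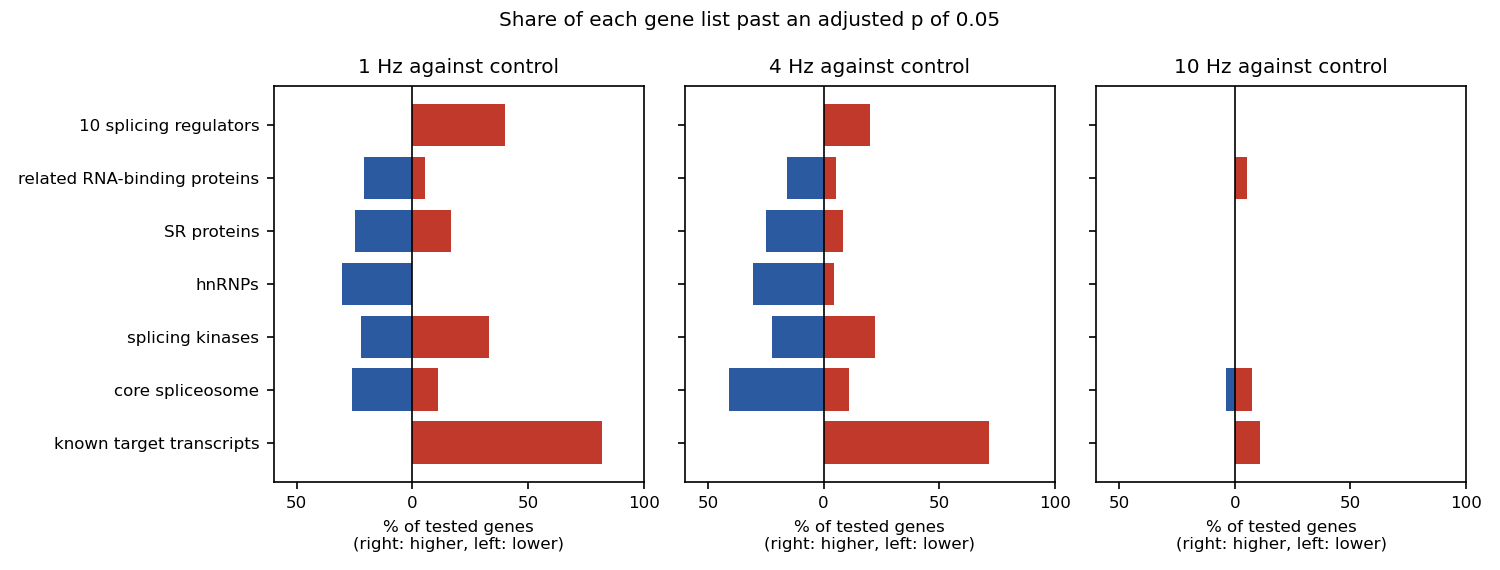
Share of the tested genes of each list that were higher (right, red) or lower (left, blue) than control at an adjusted p below 0.05. The higher share of the related RNA-binding proteins is Rbfox1 alone, which passed the filter on low counts through the stimulated libraries. Known target transcripts were mostly higher at 1 and 4 Hz (23 and 20 of 28), against 18.1% and 19.2% of all genes, and 3 of 28 at 10 Hz, against 2.67%.

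Transcripts that these regulators are known to control, most of them by splicing, form the last list. It also holds Cdkn1a, whose mRNA RBM38 is known to stabilize, and the transcription factor Myog, so its counts do not cover splicing targets alone. Of 28 tested, 23 rose and 0 fell at 1 Hz, 20 rose and 0 fell at 4 Hz, and 3 rose and 0 fell at 10 Hz, against 18.1%, 19.2%, and 2.67% of all genes that rose. Their median at 1 Hz was a log2 fold change of 0.49, beside -0.01 over all genes. The list shares Atp2a1, Ryr1, and Tnnt3 with the fiber markers, which rose in the same comparisons. Ldb3, Cacna1s, and Pdlim3, also on it, are further genes of the Z-disc or T-tubule. Camk2b rose most among those over 10 CPM (log2 fold change 1.06 at 1 Hz and 1.21 at 4 Hz, adjusted p = 5.46e-05 and 7.08e-06). Cacna1s, the calcium channel subunit of the T-tubule, rose at 1 Hz (0.96, adjusted p = 1.58e-05), and Pdlim3, a Z-disc protein, rose at 4 Hz (0.94, adjusted p = 6.09e-07) and at 10 Hz (0.51, adjusted p = 0.00637). Myog, the myogenic transcription factor, rose at 10 Hz (0.62, adjusted p = 0.0142). With the small RNA covariate, 0 of the 28 passed at 1 Hz, 4 at 4 Hz, and 3 at 10 Hz, and in the other 5 lists 0 genes passed at 1 or 4 Hz.

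The regulators did not move as a block. Over 24 libraries the SD of the log2 CPM ratio between members was smallest for Mbnl1 and Mbnl2 (0.13) and largest for Mbnl2 and Rbm38 (0.53). The tested genes most like each member, by the same SD, were Tmem64 and Hook3 for Mbnl1 (0.11 each), Kdm7a and Bmpr2 for Mbnl2 (0.10 and 0.11), and Zfp148 and Atad2 for Mbnl3 (0.22 each). They were Ube2h and Nek9 for Rbfox2 (0.08 and 0.09), Pcgf3 and Ppm1b for Celf1 (0.07 and 0.09), and Ppp2r3a and Rb1 for Celf2 (0.13 each). They were Nfe2l1 and Sec14l1 for Rbm20 (0.08 and 0.09), Zbtb18 and Sema3d for Rbm24 (0.15 and 0.16), Pacsin3 and Slc25a29 for Rbm38 (0.13 and 0.14), and Copg1 and Eif3c for Ptbp1 (0.11 each). The median SD over all 9287 or 9288 candidates was 0.28 to 0.43, and these likenesses are descriptions over libraries that share depth and condition.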

How the data were processed

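RNA from 24 tissues (6 per condition, grouped by title) was poly(A)-selected. Per the labels, some low-input samples were ribodepleted instead, and which ones is not stated. The authors ran nf-core/rnaseq against GRCm39 with Ensembl genes. They deposited salmon estimated counts (not normalized) and TPM per gene. Whether counting used strand, and the Ensembl release, are not given in the sources used here. No channelrhodopsin result is given. Totals of 4.09 to 15.2 M set the counting error.

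Estimated counts were rounded, filtered (filterByExpr), TMM-scaled, and tested by edgeR's quasi-likelihood test (edgeR 4.0.16, R 4.3.3) in 1 fit of 24 libraries with condition as factor (common dispersion 0.0233), and adjusted by Benjamini-Hochberg over 13318 genes. SEs are the absolute log2 fold change over the root of F. Fold changes on log2(TPM + pseudocount) understate low genes. Positions and exons came from GENCODE M39 (GRCm39), where all 10 identifiers matched. Fits were tested on simulated data. No library duplicated another in 60 same-condition pairs (lowest chi-square per gene 3.16). Alternatives used DESeq2 1.42.0, limma 3.58.1, other scalings, filters, and designs, and leaving out each library. The members, lists, and alternatives were chosen with earlier results of these data known. Named are all members and, per list and comparison with control, up to 2 called genes each way of at least 10 mean CPM, plus the 2 genes most alike each member. Markers, Rbfox1, Ldb3, Ttn, Ptbp2, and Cdkn1a fall outside this rule and were named after their values were seen.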

Additional observations from a re-analysis of the deposited data

Results flagged for a closer look

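Expression differed between stimulated groups, by edgeR's test of the difference itself, for 3 regulators in 6 comparisons. The log2 fold change of Ptbp1 against 1 Hz was -0.41 in 4 Hz and -0.53 in 10 Hz tissues. Rbfox2 was lower at 4 Hz than at 1 Hz by -0.29 and lower at 10 Hz than at 1 Hz by -0.38. Rbm20 was lower at 10 Hz than at 1 Hz by -0.52 and lower at 10 Hz than at 4 Hz by -0.36. All 6 were free of overlap between the groups. The share of all genes free of overlap was not computed between stimulated groups, so this has no background to be read against. Both comparisons of 4 Hz with 1 Hz kept their call with the small RNA covariate, and the other 4 did not. The calls over all 13318 genes went the same way. With the covariate 1693 passed at 4 Hz against 1 Hz, 199 at 10 Hz against 1 Hz, and 0 at 10 Hz against 4 Hz. No library stood apart from the other 5 of its condition in any of the 40 groups of values tested by Dixon's criterion. That criterion looks for a single outlying library and does not detect a split of a group.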

How the results depend on the processing

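All 12 calls among the 60 comparisons of regulators held with DESeq2, DESeq2 size factors, a minimum mean of 5 CPM, and only the 12 libraries compared. The number called at 4 Hz against control (2) was 1 with scaling by total count and 4 with the 12 libraries alone, where Celf2 and Rbm24 were added. Over all genes, 5251 of 13318 passed in the main fit, 5640 of 13318 with total counts, and 4847 of 12711 with the 12 libraries. The number of regulators called at 4 Hz against 1 Hz (2) was 1 without a filter, as Rbfox2 lost its call. Over all genes, 964 of 31472 passed there, beside 1634 of 13318 with the filter. Without a filter Rbfox2 also lost its call at 1 Hz against control (adjusted p = 0.0620). There Celf2 gained a call at 1 Hz (adjusted p = 0.0363) and at 4 Hz (adjusted p = 0.0224) against control. On TPM by limma, at all 3 settings of pseudocount and filter, 5 were called at 10 Hz against 1 Hz and 0 at 10 Hz against 4 Hz. On filtered log2(TPM + 1), 3578 and 2171 of 13627 genes passed in these comparisons, and 5180 at 4 Hz against control. At 10 Hz against 1 Hz, Mbnl1 (-0.43) and Celf2 (-0.44) were added on TPM. Rbfox2 (-0.26) and Celf1 (-0.32) were called lower at 4 Hz than control on TPM, while Rbm38 at 1 Hz lost its call without a filter (0.48, adjusted p = 0.0724). With a log2 fold change above 0.5 also required, 1 was called at 1 Hz and 1 at 4 Hz against control, 0 at 4 Hz against 1 Hz, and 0 at 10 Hz against 4 Hz. Over all 13318 genes, 2441, 2676, 399, and 1460 remained in these comparisons. With the small RNA covariate the number was 0 at 1 Hz, 4 Hz, and 10 Hz against control, 0 at 10 Hz against 1 Hz, and 0 at 10 Hz against 4 Hz, and Rbfox2 at 1 Hz turned to -0.038 (log2). Over all 13318 genes, 1, 260, 623, 199, and 0 passed in these comparisons with the covariate. The cause of these moves was not tested. Leaving out each library in turn gave 3 to 5 calls at 1 Hz, 2 to 3 at 4 Hz, and 0 at 10 Hz against control, 2 at 4 Hz and 3 to 5 at 10 Hz against 1 Hz (5 without 10 Hz replicate 5), and 1 at 10 Hz against 4 Hz. Without 10 Hz replicate 5, 2274 of 13459 genes rose and 2391 fell at 10 Hz against 1 Hz.

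Scaling moved the balance of all calls. At 4 Hz, 48.7% of the genes called were higher than control with TMM, 33.0% with total counts (median of all genes -0.11), and 23.3% on log2(TPM + 1) (median -0.16). At 1 Hz the shares were 51.1%, 36.5%, and 40.6%, and at 10 Hz 54.7%, 39.4%, and 20.4%. By correlation of their deviations, the libraries showed no clear pairing by replicate number. Same-numbered libraries had correlations of -0.18 to 0.36 (median 0.02) and others -0.32 to 0.36 (median -0.01). Of 24 libraries, 5 were closest to their own number. With the replicate number as a block, all 12 calls held and Celf2 at 4 Hz was added (0.35, adjusted p = 0.0479), which gave 3 calls at 4 Hz. Depth limited Mbnl3 most, at 19 to 96 counts per library.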
